A study of Mus musculus with 8 samples.

Results

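The genes described are those of the BATF, AP-1 and IRF transcription factors, namely Batf, Batf3, Fos, Fosl2, Jun, Junb, Jund, Irf4 and Irf8, as seen in a map of Foxp3 binding in regulatory T (Treg) cells. Each listed Foxp3 site was given the protein-coding gene whose body, widened by 5 kb, held the centre of the site, or otherwise the gene with the nearest end within 100 kb. By this rule 7 of 5521 listed sites fell to 3 of the 9 genes, with 3 sites at Fosl2, 2 at Fos and 2 at Irf4. No listed site was given to the other 6 genes, Batf, Batf3, Jun, Junb, Jund and Irf8. Binding was measured by CUT&Tag, in which an antibody directs a Tn5 transposase to cut and tag the DNA around its target. The cells were freshly sorted CD4+ hCD2+ GFP- Treg cells of C57BL6/J mice, taken from spleen and lymph nodes. The WT groups carried the genotype Foxp3WT-IRES-hCD2/Foxp3-IRES-GFP and the R397W groups Foxp3R397W-IRES-hCD2/Foxp3-IRES-GFP, so every mouse also had a GFP-tagged Foxp3 allele, and the sort kept cells with the hCD2-tagged one. R397W is a missense change in the DNA-binding forkhead domain of Foxp3. Each genotype had 2 libraries made with anti-Foxp3 and 2 with normal rabbit IgG as background. The age of the mice, and whether a group's 2 replicates are different animals, are not given in the sources used here. P-values therefore measure the spread between these libraries, which may be technical. Occupancy carries no RNA level, so the identity of the sorted cells was not checked with marker genes. A smaller share of cells with an occupied site and weaker occupancy in each cell cannot be told apart in such bulk libraries.

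AP-1 factors are dimers of basic leucine zipper (bZIP) proteins, in which FOS proteins such as Fos and Fosl2 (FRA2) pair with JUN proteins such as Jun, Junb and Jund. BATF and BATF3 also pair with JUN proteins, and these dimers recruit IRF4 or IRF8 to composite AP-1 and IRF elements. In T cells, signals from the antigen receptor raise BATF and IRF4, and both factors are needed for effector Treg cells, the activated Treg cells of tissues and inflamed sites. The title of the series names Foxp3 and BATF as joint regulators of effector Treg differentiation. The files sort Foxp3 sites into common, cTreg-specific and eTreg-specific classes, where eTreg stands for effector Treg.

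All 7 sites were of the common class (100%), against 3670 of 5210 sites with a gene (70.4%). None was eTreg-specific, although 16.8% of the sites with a gene were. Each spanned 400 bp. Only 1 of the 7 lay inside a gene body, in Irf4, whereas 67.3% of the 5210 sites did, and 4 of the 7 lay outside but within 5 kb of their gene, against 11.3%. All 6 sites outside their gene were upstream of its start. With 7 sites these shares are a description only.

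The sites at Fosl2 and Irf4 came close to the gene start without reaching the 250 bases before it. The nearest site ended 361 bp before this window at Fosl2 and 249 bp before it at Irf4. At Fos, whose sites are far upstream, the distance was 26137 bp. The windows of these 3 genes, from RefSeq (GRCm38.p6), are printed because they are the promoters nearest to the measured sites. The sequences of the sites themselves were not analysed here. Capitals mark matches, on either strand, to GAAA, then NN, then GAAA, a core of IRF elements. The other motifs searched were TGANTCA (AP-1), TGACGTCA (the cyclic AMP response element, bound by JUN and ATF dimers) and TGTTTAC (forkhead), and no searched motif overlapped another in these windows. All 3 genes are on the plus strand.
Fosl2, chr5:32136222-32136471: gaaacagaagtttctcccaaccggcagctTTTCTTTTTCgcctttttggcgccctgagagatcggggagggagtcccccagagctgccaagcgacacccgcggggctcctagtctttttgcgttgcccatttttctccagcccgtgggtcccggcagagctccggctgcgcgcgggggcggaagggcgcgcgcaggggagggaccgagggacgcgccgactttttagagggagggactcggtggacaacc
Irf4, chr13:30748983-30749232: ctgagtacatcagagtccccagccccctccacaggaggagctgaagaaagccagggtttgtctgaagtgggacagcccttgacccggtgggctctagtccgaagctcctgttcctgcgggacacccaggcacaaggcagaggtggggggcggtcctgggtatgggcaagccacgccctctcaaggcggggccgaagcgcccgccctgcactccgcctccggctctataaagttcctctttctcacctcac
Fos, chr12:85473640-85473889: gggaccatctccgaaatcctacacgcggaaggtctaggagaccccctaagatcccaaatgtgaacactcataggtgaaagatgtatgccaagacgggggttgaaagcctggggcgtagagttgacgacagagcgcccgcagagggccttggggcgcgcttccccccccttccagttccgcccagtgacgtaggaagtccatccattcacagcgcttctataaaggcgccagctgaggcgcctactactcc
The Fosl2 window held TTTCTTTTTC, a minus-strand match to that IRF core, from 221 to 212 bases before the start. Such a match was present in 2.98% of the 32851 windows of the same length in the table. The Irf4 and Fos windows held none of the 4 motifs. Over the 10 windows of the 9 genes (Irf8 has 2), the only other match was TGTTTAC in Junb, 135 to 129 bases before the start, a motif present in 3.17% of all windows. TGANTCA, found in 6.75% of all windows, and TGACGTCA, found in 1.55%, occurred in none of the 10. A match is a description of letters and not a binding site. The windows were rich in G and C, with a median of 62.4% (46.4% at Batf to 76.0% at Batf3) against 52.4% over all windows.

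The map of listed sites within 100 kb shows 3 different arrangements. At Fosl2 (chromosome 5, 32136472 to 32157840), which encodes the FOS family protein FRA2, the 3 sites were centred 3340, 2749 and 811 bp upstream of the start. The first pair was separated by 191 bp, and no other listed site lay within 100 kb of the gene. At Fos (chromosome 12, 85473890 to 85477274), the classical partner of JUN, the sites were centred 29033 and 26587 bp upstream, with a gap of 2046 bp between them. They belong to Fos only through the 100 kb limit. At Irf4 (chromosome 13, 30749233 to 30766981) one site was 699 bp upstream and the other inside the gene, 11213 bp past the start. Irf4 had 7 listed sites within 100 kb, and the rule gave 5 of them to Exoc2, a gene downstream of it that encodes a subunit of the exocyst. Of these 5, 2 were eTreg-specific, at 25.5 and 64.5 kb from the end of Irf4.

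**Figure D1:**
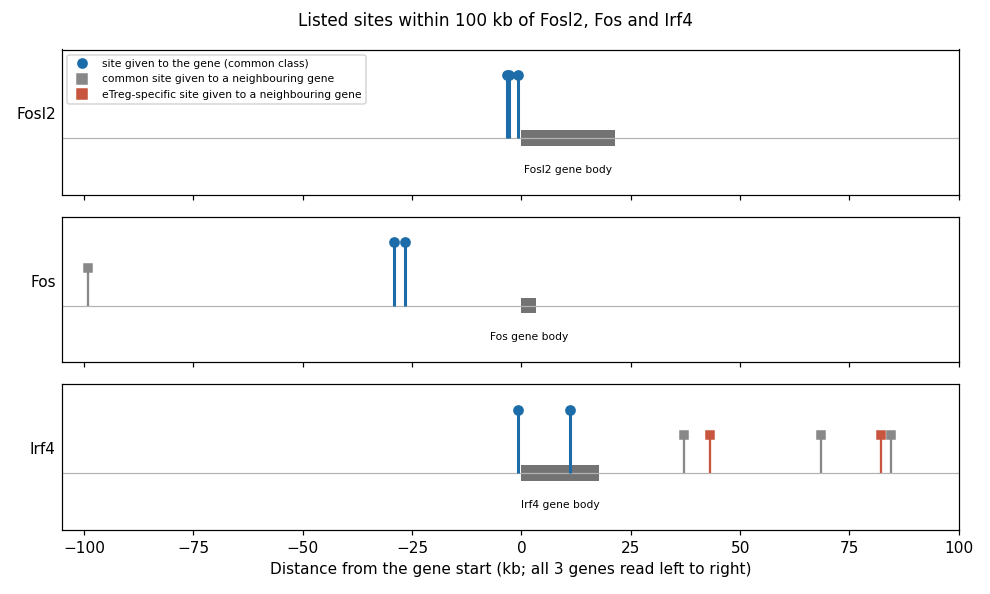
Listed Foxp3 sites within 100 kb of Fosl2, Fos and Irf4, by distance of the site centre from the gene start in kb. Grey bars are gene bodies, tall blue pins are sites given to the gene, and short pins are sites given to a neighbouring gene. The 3 Fosl2 sites sit just upstream of the start, the 2 Fos sites are 29033 and 26587 bp upstream, and 5 further sites lie downstream of Irf4.

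The genes without a site differed in how far the nearest listed site was. For Batf, the partner named in the title, it was 239417 bp away and was one of the Fos sites, with Fos and Jdp2 in between. The nearest site to Batf3, the close relative of BATF, was an eTreg-specific site 84936 bp away, which the rule gave to Atf3. For Jun the nearest was 96031 bp away, inside Mysm1. For Irf8, an IRF with roles in myeloid and lymphoid cells, it was 191912 bp away, inside Gse1. For Junb and Jund, which encode JUN family partners, it was 645.8 kb and 777.2 kb away. The list of sites was the authors', so a gene without a listed site is not shown to be unbound.

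The site 811 bp upstream of Fosl2 (chromosome 5, 32135461 to 32135861) had the highest mean of the 7 in each of the 4 groups, and it was high with IgG as well as with anti-Foxp3. Its normalised read count, the deposited unit of reads per site divided by a library factor, reached 246.2 and 308.7 for replicates 1 and 2 of WT Foxp3, against 262.5 and 195.2 for R397W Foxp3. WT IgG gave 288.1 and 229.9, while R397W IgG gave 237.7 and 424.5. The groups overlapped. In WT Foxp3 replicate 1 and R397W IgG replicate 1 the Fos site at 26587 bp was higher. Between 95.8% and 99.5% of the 3847 common sites had a lower value in the same library. It had at least 100 reads in each library, so counting error is small here, though PCR reads are not independent molecules and all intervals cover counting error only. The 95% Poisson interval was 213.5 to 282.5 in WT Foxp3 replicate 1.

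A second Fosl2 site, 2749 bp upstream (chromosome 5, 32133523 to 32133923), had 71.6 and 163.9 in WT Foxp3, against 154.9 and 87.6 in R397W Foxp3. WT IgG gave 115.0 and 0, while R397W IgG gave 20.4 and 156.6. The groups overlapped, and WT IgG replicate 1 was above WT Foxp3 replicate 1. The third, 3340 bp upstream (chromosome 5, 32132932 to 32133332), was weak in WT, with 20.6 and 21.0. In R397W Foxp3 it gave 49.9 and 39.3, higher without overlap, as at 6.43% of all sites. WT IgG stood at 1 read in each library (0.661 and 0.498), while R397W IgG was 113.2 and 36.9. At this site R397W exceeded WT with both antibodies.

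At Fos the order followed the replicate number more than genotype or antibody. The site 26587 bp upstream (chromosome 12, 85447103 to 85447503) had 349.3 and 20.0 in WT Foxp3, against 257.3 and 76.7 in R397W Foxp3. WT IgG gave 105.1 and 0, while R397W IgG gave 262.6 and 0. In each of the 4 groups replicate 1 was the higher. The neighbouring site 29033 bp upstream (chromosome 12, 85444657 to 85445057) had the same order, namely 107.9 and 3.73 for WT Foxp3, 89.3 and 0.644 for R397W Foxp3, 25.1 and 0 for WT IgG, then 67.9 and 0 for R397W IgG. The libraries numbered 2 also had fewer covered sites in general, with no reads at 43.0% to 62.9% of common sites, against 3.67% to 26.2% in those numbered 1. The part of this difference in the Fos values was not tested.

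At Irf4, which drives effector differentiation, the site 699 bp upstream (chromosome 13, 30748334 to 30748734) had 57.0 and 50.8 in WT Foxp3. In R397W Foxp3 it had 99.8 and 0. WT IgG gave 43.0 and 11.9, while neither R397W IgG library had a read. The site inside the gene (chromosome 13, 30760246 to 30760646) had 61.9 and 87.5 in WT Foxp3, against 52.5 and 0 in R397W Foxp3, so both R397W values were below both WT values. WT IgG gave 41.6 and 0, while R397W IgG gave 110.9 and 150.2. The highest values at the intragenic site were therefore in R397W IgG. R397W Foxp3 replicate 2 had no reads at either Irf4 site, and it had none at 52.8% of common sites. A count of 0 there allows up to 1.93 normalised reads (3 reads), for counting error only.

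**Figure D2:**
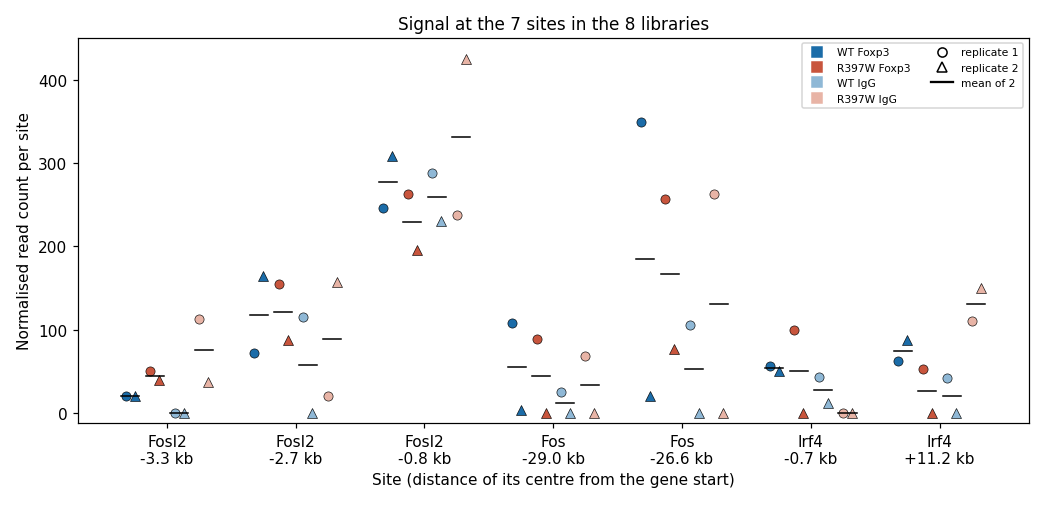
Normalised read count at each of the 7 sites (x axis, with the distance from the gene start in kb) in the 8 libraries. Circles and triangles are replicates 1 and 2, colours the 4 groups, and short lines the mean of 2. The Fosl2 site 811 bp upstream is between 195.2 and 424.5 in every library, and in each group the Fos site 26587 bp upstream is higher in replicate 1.

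Ranked by the mean of the WT Foxp3 libraries, the sites spread over much of the common class. The share of common sites with a lower mean was 98.9% for the Fosl2 site at 811 bp (277.5 ± 44.2, SD, n = 2), 96.7% for the Fos site at 26587 bp (185 ± 233) and 89.3% for the Fosl2 site at 2749 bp (118 ± 65.3). It was 77.5% for the intragenic Irf4 site (74.7 ± 18.2), 68.4% for the Fos site at 29033 bp (55.8 ± 73.7) and 67.4% for the upstream Irf4 site (53.9 ± 4.42). The Fosl2 site at 3340 bp came last with 39.7% (20.8 ± 0.237). Each pair of neighbours in this order differed by less than the larger SD of the pair, except the upstream Irf4 site and the Fosl2 site at 3340 bp. Summed per gene over common sites, Fosl2 ranked 32 of 2188 genes, Fos 156 and Irf4 442, and genes with more sites rank higher in such sums. Only 2 of the 7 sites (28.6%), both at Fosl2, had reads in all 8 libraries, against 21.2% of common sites. One of these 2 rested on 1 read in each WT IgG library.

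In WT cells all 7 sites had a fitted value above IgG, and none passed the test. The question here was whether the signal at each site stood above the background of its own cells. The median log2 difference of (normalised read count + 1), WT Foxp3 minus WT IgG, was 3.06 over the 7 sites, 1.15 over all common sites and 1.27 over all 5521 sites. All 7 sites had reads in both WT Foxp3 libraries, while 3.67% and 43.0% of common sites had none in replicates 1 and 2. The share of all sites with a fitted value above IgG was not counted. By limma over the 8 libraries with Benjamini-Hochberg adjustment over all sites, 0 of 7 sites were called, against 0.0725% of all sites (4 of 5521; 0 with the replicate number as a block), and the lowest adjusted p among the 7 was 0.991. At unadjusted p under 0.05 there was 1 of 7, the Fosl2 site at 2749 bp, against 2.57% of all sites. Its difference was 3.34 (SE 1.69, unadjusted p = 0.0476 by limma), and it rested on the empty WT IgG replicate 2, without which it was -0.085. None of the 7 was called by edgeR or DESeq2 on recovered reads. At unadjusted p under 0.05 edgeR had 0 and DESeq2 1, the Fosl2 site at 3340 bp, against 42 and 197 of all 5521 sites.

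Much of this rested on 1 library. WT IgG replicate 2 had no reads at 4 of the 7 sites and at 62.9% of common sites. Without it, 3 of the 7 fitted differences were above 0 and 4 below, and the median was -0.063. The Fosl2 site at 811 bp had the smallest difference, 0.10 (SE 0.48), and was -0.47 when the libraries' totals were made equal. After centring on the median of common sites, 5 of 7 were above 0, the median over the 7 sites was 0.97, and that over all sites moved from 1.27 to -0.82. The median of common sites was 0 in WT IgG replicate 2, R397W Foxp3 replicate 2 and R397W IgG replicate 2. Centring thus depends on how many sites are empty, and it moves every site of a library equally. On recovered reads the median over the 7 was 1.81 by edgeR and 1.81 by DESeq2. Within same-numbered pairs, WT Foxp3 exceeded WT IgG in both pairs at 5 of 7 sites, against 31% of all sites.

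In R397W cells the sites did not stand on one side of IgG. The fitted difference, R397W Foxp3 minus R397W IgG, was above 0 at 4 and below at 3 of 7 sites, with a median of 0.55 against 0.05 over all sites. None of the 7 passed in limma, where 0% of all 5521 sites were called, and none had an unadjusted p under 0.05, against 1.47% of all sites. Both tools on recovered reads also called none. At unadjusted p under 0.05 edgeR had 0 and DESeq2 1, the upstream Irf4 site, against 20 and 81 of all 5521 sites. Foxp3 exceeded IgG in both same-numbered pairs at 1 of 7 sites, the Fos site at 29033 bp (on 1 read in replicate 2), against 16% of all sites. The median turned to -0.70 without R397W Foxp3 replicate 1 and to -0.90 without R397W IgG replicate 2.

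**Figure D3:**
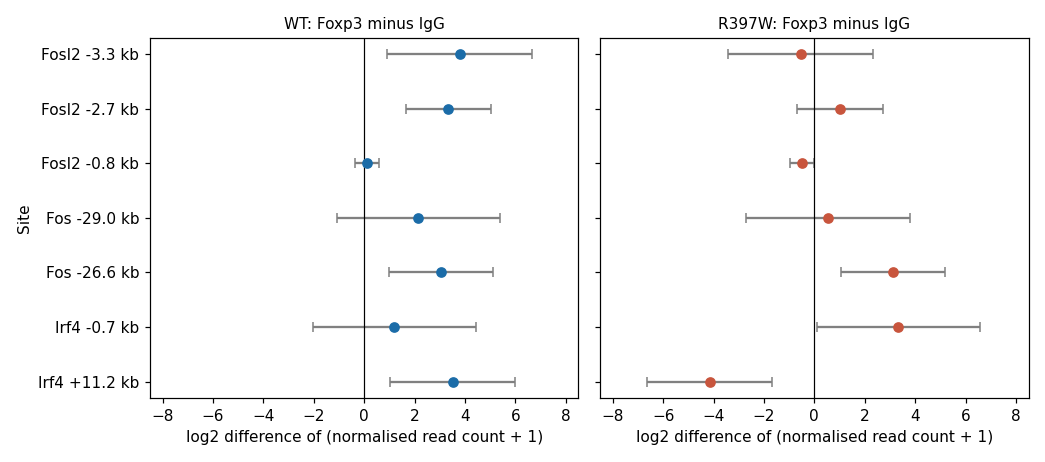
Fitted log2 difference between anti-Foxp3 and IgG at the 7 sites, in WT (left) and R397W (right) cells, on the scale of log2(normalised read count + 1). Bars are the standard error from limma over 8 libraries. All 7 points lie above 0 in WT and 4 of 7 in R397W, and none passed after adjustment.

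The difference between the genotypes in Foxp3 over IgG was tested directly. It was called at 0 of 7 sites and at 0% of all sites by limma (lowest adjusted p among the 7 = 0.9997), with 5 of 7 fitted values below 0 and a median of -1.60 against -1.02 over all sites. At unadjusted p under 0.05 there was 1 of 7, the intragenic Irf4 site (-7.67, SE 3.51; -4.18 by edgeR and by DESeq2, neither under 0.05), against 1.65% of all sites. It was also the only one of the 7 above IgG in both same-numbered WT pairs and below it in both R397W pairs, a pattern of 4.31% of all sites. The reverse was seen at 0 of 7 (1.47% of all sites). Both recovered-read tools called none. At unadjusted p under 0.05 edgeR had 0 and DESeq2 1, the Fosl2 site at 3340 bp, against 30 and 109 of all 5521 sites. Without WT IgG replicate 2 the median was 0.76, and centring on the common-site median left 4 of 7 above 0.

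R397W was then compared with WT in the Foxp3 libraries, and none of the 7 sites passed the test. Fitted values were higher in R397W at 3 and lower at 4 of 7 sites, with a median log2 difference of -0.28 against -0.39 over all sites. By limma on the 4 libraries, 0 of 7 and 0% of all sites were called, with an adjusted p of 1 at each of the 7. None of the 7 had an unadjusted p under 0.05, against 0.326% of all sites, and edgeR and DESeq2 called none of the 7 and had none under that value (over all 5521 sites each called 0, with 40 and 60 under it). Genotypes did not overlap at 1 site lower in R397W (intragenic Irf4, background 12.6% of all sites) and at 1 higher (Fosl2 at 3340 bp, background 6.43%).

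The largest differences fitted by limma were at Irf4, with -3.35 (SE 2.35) inside the gene and -2.45 (SE 2.52) upstream. Both rested on the empty R397W Foxp3 replicate 2. Without it they were -0.48 and 0.88. On recovered reads edgeR gave -1.53 inside the gene and -0.12 upstream, and DESeq2 gave the same to 2 decimals, so that the Fosl2 site at 3340 bp (1.10 by each) exceeded the upstream Irf4 site. At Fosl2 the differences were -0.28 (SE 0.46) at 811 bp (-0.50 to -0.070 with 1 library left out), 0.10 (SE 0.75) at 2749 bp and 1.06 (SE 1.38) at 3340 bp. At Fos they were 0.72 (SE 1.38) at 26587 bp and -0.90 (SE 3.04) at 29033 bp, each with a standard error larger than the difference. The smallest standard error of the 7 belongs to the deeply covered Fosl2 site, and a p that misses the threshold does not show that the genotypes bind alike there. With centring on the common-site median, which moved the median over all sites to 1.31, the Fosl2 site at 811 bp turned to 1.41 and the Fos site at 29033 bp to 0.80. The common-site median was 42.45 and 7.45 in WT Foxp3, against 34.13 and 0 in R397W Foxp3. Centring moved the difference at every site by the same amount.

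Summed over its sites, Fosl2 had 338 and 494 in WT Foxp3, against 467 and 322 in R397W Foxp3, with means of 416 ± 110 and 395 ± 103 (SD, n = 2; exact permutation p = 0.667, two-sided). Fos had 457 and 23.8 for WT against 346.5 and 77.3 for R397W, and Irf4 had 118.9 and 138.3 for WT against 152.3 and 0 for R397W (exact permutation p = 1 for each). The smallest p that 2 against 2 allows is 0.3333. The difference was smaller than the larger SD for each of the 3 sums.

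IgG libraries were compared between genotypes as a control. R397W IgG was above WT IgG in the fit at 6 of 7 sites, with a median log2 difference of 0.70 against 0.33 over all sites. None of the 7 passed in limma (0.0362% of all sites did), and none had an unadjusted p under 0.05, against 2.25% of all sites. Centred, without a variance trend and with the replicate block, 2, 1 and 2 of the 7 were under it. Of all sites 103, 101 and 304 were then under it. DESeq2 had 2 of the 7 under that value, the Fosl2 site at 3340 bp and the upstream Irf4 site, and called none. Without WT IgG replicate 2, 3 of the 7 were above 0 and the median was -0.999.

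How the reads of a gene divide over its sites does not depend on any library factor. At Fosl2 the site at 811 bp took 72.8% of the gene's reads in WT Foxp3 replicate 1 (203 of 279, exact 95% binomial interval 67.1 to 77.9) and 62.5% in replicate 2 (663 of 1060, 59.6 to 65.5). It took 56.2% (100 of 178, 48.6 to 63.6) and 60.6% (303 of 500, 56.2 to 64.9) in R397W Foxp3. With IgG its share was 71.4% and 99.8% for WT, against 64.0% and 68.7% for R397W. The site nearest the start held most of the reads in each of the 8 libraries. The farthest site, at 3340 bp, held 6.09% (3.59 to 9.58) and 4.25% (3.11 to 5.64) in WT Foxp3. In R397W Foxp3 it held 10.7% (6.55 to 16.2) and 12.2% (9.46 to 15.4). These shares did not overlap between the genotypes, but the interval of WT Foxp3 replicate 1 overlapped both R397W Foxp3 intervals. How often such shares separate over all genes was not counted. With IgG the share of the site at 3340 bp was 0.164% and 0.216% for WT, against 30.5% and 5.97% for R397W, again higher in R397W.

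**Figure D4:**
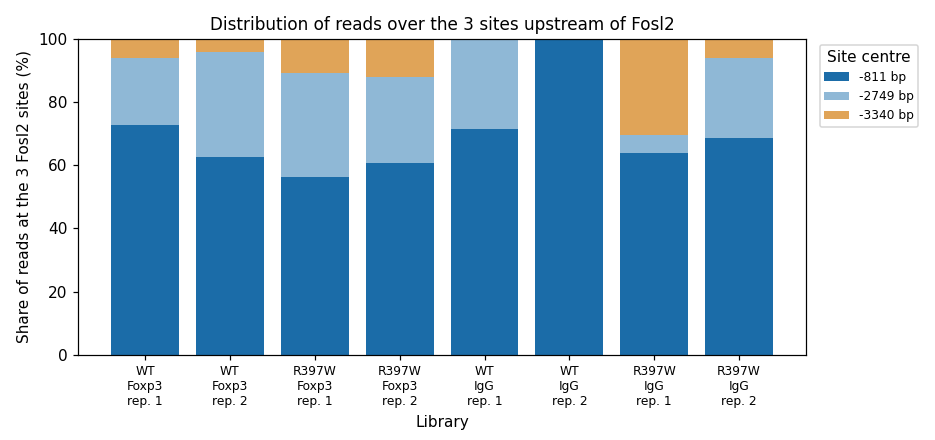
Share of the reads at the 3 Fosl2 sites that fell in each site, per library, as stacked bars that sum to 100%. The site at -811 bp (dark blue) holds between 56.2% and 99.8%, and the site at -3340 bp (orange) holds 0.164% to 6.09% in the WT libraries and 5.97% to 30.5% in the R397W libraries.

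At Fos the site nearer the gene took 76.4% and 84.3% of the reads in WT Foxp3, against 74.2% and 99.2% in R397W Foxp3. It took 80.7% in WT IgG replicate 1 and 79.5% in R397W IgG replicate 1, while both IgG libraries numbered 2 had no reads at either site. The division was thus between 74.2% and 80.7% in all 4 libraries numbered 1, whatever the antibody or genotype. At Irf4 the intragenic site took 52.0% and 63.3% in WT Foxp3, 34.5% in R397W Foxp3 replicate 1, and all 49 and 236 reads in the R397W IgG libraries. WT IgG replicate 2 had the reverse, with all 24 reads at the upstream site.

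The 7 sites together held 0.270% and 0.357% of all listed reads in WT Foxp3, against 0.331% and 0.220% in R397W Foxp3. For WT IgG the shares were 0.314% and 0.169%, against 0.322% and 0.466% for R397W IgG. Group means were 0.313 ± 0.0620% and 0.276 ± 0.0780% for WT and R397W Foxp3 and 0.242 ± 0.103% and 0.394 ± 0.102% for WT and R397W IgG (SD, n = 2). The groups overlapped, except that both R397W IgG shares exceeded both WT IgG shares. Even there the exact 95% binomial intervals of the replicates numbered 1 overlapped, at 0.2899 to 0.3575% for R397W IgG and 0.2946 to 0.3352% for WT IgG. The Fosl2 site at 811 bp supplied between 26.9% and 94.9% of the reads at the 7 sites. Listed reads ranged from 111274 to 394196 per library.

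The sites around Irf4 that went to Exoc2 showed a similar mixture. The nearest, a common site 19328 bp past the end of Irf4 (chromosome 13, 30786109 to 30786509), had 162.5 and 149.9 in WT Foxp3, against 170.6 and 0 in R397W Foxp3. WT IgG gave 76.0 and 0, while R397W IgG gave 194.7 and 59.2. As at both Irf4 sites, R397W Foxp3 replicate 2 was empty. The eTreg-specific site 25456 bp past the end (chromosome 13, 30792237 to 30792637) had 77.1 and 66.8 in WT Foxp3, against 62.8 and 222.5 in R397W Foxp3. WT IgG gave 128.3 and 135.4, while R397W IgG gave 22.3 and 89.5. R397W Foxp3 replicate 2 was thus empty at both Irf4 sites and the nearest Exoc2 site, and the highest of the 8 libraries at the next. The eTreg-specific site nearest to Batf3, given to Atf3 (chromosome 1, 191193679 to 191194079), had 112.6 and 9.21 in WT Foxp3, against 117.3 and 126.5 in R397W Foxp3, with IgG between 24.5 and 72.3.

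Other genes of the pathway were taken from fixed lists. Of 28 other bZIP genes 10 had a site, 24 sites in all, of which 13 were common, 2 cTreg-specific and 9 eTreg-specific. Bach2, which encodes a bZIP repressor known to keep T cells in a resting state, had 9 of them. Of 10 other IRF genes and IRF2 binding protein genes 3 had a site (Irf2, Irf2bp2 and Irf2bpl, 7 sites), and of 15 MAP kinase genes upstream of AP-1 7 had one (17 sites). The ETS partner genes Spi1 and Spib had none. By limma 0 sites of these lists passed in either direction, R397W against WT or WT Foxp3 against IgG, and 0 had an unadjusted p under 0.05. Over all 5521 sites 0% and 0.0725% passed, and 0.326% and 2.57% had an unadjusted p under 0.05, so 0 in these lists is near the background. The median log2 difference between genotypes was 0.06 over the bZIP sites, 0.13 over the IRF sites and -1.46 over the MAP kinase sites, against -0.39 over all sites. Genotypes did not overlap at 2 bZIP sites lower and 3 higher in R397W, at 1 and 1 IRF sites, and at 4 and 0 MAP kinase sites, where over all sites 12.6% were lower and 6.43% higher without overlap.

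Examples, chosen after their values were seen, show the spread. The one site of Fosb, the gene of another FOS family protein, was eTreg-specific, 15984 bp from the gene, with 62.4 and 13.1 in WT Foxp3 and 0 in both R397W Foxp3 libraries. WT IgG gave 4.40 and 0, while R397W IgG gave 37.2 and 0. A common site inside Nfe2l2, the gene of the oxidative stress regulator NRF2, had 419.6 and 85.2 in WT Foxp3, against 309.8 and 49.6 in R397W Foxp3. WT IgG gave 128.2 and 100.5, while R397W IgG gave 373.5 and 201.7. Neither was called.

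The gene whose summed common-site signal moved most like that of Fosl2, the member with the highest WT Foxp3 sum, was Tcf4 (Pearson r = 0.93 over the 8 libraries, on log2 of the summed value + 1). Prdm15 (r = 0.92) and Zfp395 (r = 0.88) came next among 819 genes with reads in all libraries. Every gene shares the libraries' depth, antibody and genotype, so these values describe likeness only.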

How the data were processed

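Treg cells were lightly fixed (2 minutes, 0.1% formaldehyde), given 0.5 µg of antibody and spike-in nuclei, and their libraries amplified by 14 to 15 PCR cycles, per the labels' protocols. Builds mm10 and dm6 and the tools DiffBind 3.12.0 and Bowtie2 2.5.2 appear in the submitters' processing notes. The authors deposited 3 lists of sites (common, cTreg-specific and eTreg-specific), per the file headers with a signal per library. Within a list and library every deposited signal was a whole multiple (100% within 0.01) of the value of 1 read, so reads were recovered, and the 3 lists were scaled separately.

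Sites were joined to RefSeq gene bodies (GRCm38.p6) and fitted over all 5521 sites with limma 3.58.1 on log2(normalised read count + 1), with Benjamini-Hochberg adjustment (threshold 0.05). This scale shrinks differences between low values, as at the Fosl2 site at 3340 bp (WT Foxp3 minus IgG, 3.79 by limma, 4.96 by edgeR). It can enlarge them where a library is empty, as inside Irf4 (R397W minus WT, Foxp3 libraries, -3.35 by limma, -1.53 by edgeR). The 4 Foxp3 libraries were fitted for genotype and all 8 for the other contrasts. Recovered reads were tested with edgeR 4.0.16 and DESeq2 1.42.0 in R 4.3.3. The limma and edgeR fits of genotype in the 4 Foxp3 libraries were also run on simulated reads. DESeq2 and the fits over 8 libraries were not.

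The genes and lists were chosen with earlier results of these data known. By the rule for named sites, values per library go to the strongest site of each gene and to sites at unadjusted p under 0.05. The other sites of the 3 genes, and the sites given to Exoc2, Atf3, Fosb and Nfe2l2, were added after their values were seen. Alternatives were other pseudocounts (0.5 and 5), a filter on the lowest 25% of sites, equal totals, centring, no variance trend, a replicate block, both count tools, each library left out and other gene limits. No sequence of a listed site was used here.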

Additional observations from a re-analysis of the deposited data

Results flagged for a closer look

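Of the 7 sites, only that inside Irf4 had an unadjusted p under 0.05 by limma for the genotype difference in Foxp3 over IgG. Over all sites the share was 1.65%. WT Foxp3 (61.9 and 87.5) was above WT IgG (41.6 and 0), and R397W Foxp3 (52.5 and 0) was below R397W IgG (110.9 and 150.2), in both same-numbered pairs. This pattern was seen at 4.31% of all sites. The log2 difference of differences was -7.67 (SE 3.51) by limma over the 8 libraries, with an unadjusted p of 0.0290 and a Benjamini-Hochberg adjusted p of 0.9997 over all sites, so it failed the correction. On recovered reads it was -4.18 by edgeR (unadjusted p of 0.2005) and -4.18 by DESeq2 (0.24). R397W Foxp3 replicate 2 and WT IgG replicate 2 had no reads at this site. By limma the difference was -4.80 without the former and -4.96 without the latter, and with any 1 library left out it ran from -10.54 to -4.80. It was -5.68 after centring (unadjusted p of 0.1417 by limma), while with no variance trend the unadjusted p was 0.05334. The unadjusted p by limma was 0.03333 and 0.02243 with pseudocounts 0.5 and 5, and 0.02872 with the filter. It was 0.02768 with equal totals and 0.03533 with the replicate block. The adjusted p in these 5 settings was 0.8446 or more.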

How the results depend on the processing

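No alternative that was run called any of the 7 sites in any comparison. Of 91 site values for genotype under an alternative, 80 kept their direction, and of 119 for WT Foxp3 against IgG, 110 did. The filter, no trend and the replicate block could not change a fitted difference. For WT Foxp3 against IgG, leaving out an R397W library could not either. These settings are counted as kept, so both tallies overstate how steady the directions were. A left-out library leaves 1 sample in its group, which limma assumes to vary like the others. Where values moved, the cause was not tested.

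For R397W minus WT in Foxp3 libraries, centring gave a median over the 7 sites of 1.41, and turned Fosl2 at 811 bp to 1.41 and Fos at 29033 bp to 0.80. Fos at 26587 bp was -0.15 by edgeR and -0.15 by DESeq2. With each library left out, the median ran from -1.31 to 0.88, Fosl2 at 2749 bp from -0.49 to 0.70, Fos at 29033 bp from -3.79 to 1.99, Fos at 26587 bp from -1.31 to 2.75, Irf4 at 699 bp from -5.78 to 0.88 and the intragenic Irf4 site from -6.22 to -0.48, while calls over all sites ran from 0 to 643 (643 without WT Foxp3 replicate 2). The summed differences ran from -98.9 to 56.3 at Fosl2, -245.3 to 188 at Fos and -128.6 to 23.7 at Irf4, and equal totals gave 17.2 at Fos.

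For WT Foxp3 minus IgG, the 4 calls over all sites became 0 with pseudocount 5, equal totals, centring, no trend, the replicate block, edgeR or DESeq2, and ran from 0 to 189 with a library left out (34 without WT Foxp3 replicate 1, 189 without replicate 2, 29 without WT IgG replicate 1). Fosl2 at 811 bp was -0.47 with equal totals and -1.99 centred, and Irf4 at 699 bp -0.89 centred. With a library left out the median ran from -0.063 to 4.50, Fosl2 at 2749 bp from -0.085 to 6.77, Fosl2 at 811 bp from -0.064 to 0.26, Fos at 29033 bp from -0.20 to 4.50 and Fos at 26587 bp from -0.31 to 6.42. In R397W the median ran from -0.90 to 1.43. For the genotype difference in Foxp3 over IgG it was 0.39 centred and ran from -3.95 to 0.76, with 0 to 182 calls over all sites (182 without WT Foxp3 replicate 2, 1 without WT IgG replicate 1). For R397W minus WT in IgG, the 2 calls became 0 with pseudocount 5, equal totals, centring, no trend, edgeR or DESeq2 and 1 with the replicate block, and ran from 0 to 15 (15 without WT IgG replicate 1), with medians from -0.999 to 4.02.

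Without the Fosl2 site at 811 bp, the other 6 sites held 0.197% and 0.189% of listed reads for WT Foxp3, 0.241% and 0.113% for R397W Foxp3, 0.168% and 0.00867% for WT IgG, then 0.228% and 0.209% for R397W IgG. A gene limit of 10 kb left 5 sites and the nearest gene end 7.

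Titles give the Foxp3 and IgG libraries of 1 number the same cell sample name within a genotype, without saying whether that is an animal, a sort or a day, and tie no number across genotypes. The block was therefore the number within a genotype, except for R397W minus WT in Foxp3 or in IgG libraries, where it was the number alone. The deviations of same-numbered libraries correlated between 0.0375 and 0.167 over the pairs of groups, and with 2 numbers this settles no pairing. The replicate block changed no call at the 7 sites, with 140 sites at unadjusted p under 0.05 for genotype in Foxp3 libraries against 18 without it. For WT Foxp3 minus IgG it moved the number of the 7 sites at that level from 1 to 0, and that of all sites from 142 to 360. For R397W minus WT in IgG libraries it moved the number of the 7 from 0 to 2, and that of all sites from 124 to 304. Where any of the 7 sites was empty in a library, 3 reads equalled up to 6.79 normalised reads (R397W IgG replicate 1). The part of depth in the empty sites was not tested.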
